A study of Mus musculus with 10 samples.

Results

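Among 10 brown adipose tissue arrays, 3 carried a high signal for Mfsd2a and 7 a low one, and these arrays are compared here across all genes. The classes were chosen by measured values, the Mfsd2a signals of these same arrays. Mfsd2a was read by 1 probe set (1428223_at), arrays at or above 7 log2 units formed the high class, and arrays below 7 the low class. The high class held WT 4, WT 5 and KO 5, and the low class held WT 1 to WT 3 and KO 1 to KO 4. Because measured values made the classes, no test of high against low arrays was run, and differences between the classes are given as descriptions. Mfsd2a is left out of every count of genes that differ between the classes. The genotype fit and the check for outlying arrays include it.

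The study profiled brown adipose tissue, the heat-producing fat of rodents, of Sirt3 wild-type mice (WT, 5 arrays) and Sirt3 knockout mice (KO, 5 arrays). Sirt3 encodes a mitochondrial deacetylase. All were untreated littermates aged about 1 year on a 129 background, and each array was taken as a separate mouse. The promoter, exon or cell type of the deletion, the feeding state and the hour of tissue collection are not stated in the labels. Sirt3 was read by 1 probe set (1417892_a_at) that was not lower in the arrays labelled KO (KO minus WT 0.19 ± 0.061 log2 units, SE, n = 5 per genotype, limma adjusted p = 0.914), so genotypes are named as labelled. The brown fat marker Ucp1, the uncoupling protein of heat production, was abundant in every array, between 13.96 and 14.28 log2 units. Not every gene of brown identity was bright, since Zic1 fell to 4.43 in KO 4. Pairwise correlations of the arrays over probe sets lay between 0.988 and 0.997, and since RMA equalizes array distributions, it would hide a shift common to most genes.

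Mfsd2a is a membrane transporter of lysophosphatidylcholine, the carrier form of docosahexaenoic acid, and its transcript is known to be raised by fasting in liver and by cold in brown fat. Fasting lowers insulin and raises circulating glucocorticoids. Low insulin releases the transcription factor Foxo1 from restraint and lowers Srebf1, the driver of fatty acid synthesis genes. Glucocorticoids bind a nuclear receptor that switches on genes such as Fkbp5, Zbtb16 and Tsc22d3. Leptin, the satiety hormone of fat encoded by Lep, falls in fasting, whereas glucocorticoids are known to raise it. The question put to these arrays was whether the genes that differ between the classes are those of fasting or those of glucocorticoid exposure.

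The log2 signal of Mfsd2a in the WT arrays 1 to 5 was 4.97, 4.72, 5.62, 10.21 and 10.50. In the KO arrays 1 to 5 it was 5.24, 5.37, 5.11, 5.45 and 7.43. WT 4 and WT 5 therefore stood far above all others, and KO 5 stood between them and the rest. The array just inside the threshold was KO 5 at 7.43, and the one just outside was WT 3 at 5.62. Mean signal was 5.72 ± 0.963 in KO and 7.20 ± 2.90 in WT (SD, n = 5 each). The KO minus WT difference of -1.48 ± 1.15 (SE, 95% confidence interval -4.01 to 1.04) was within the spread between arrays (exact two-sided permutation over 252 splits, p = 0.389). This p-value is the share of the 252 splits of these arrays with a difference at least as large in either direction.

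Fkbp5 (1416125_at), a co-chaperone that holds the glucocorticoid receptor in its inactive form and a standard readout of that receptor, gave 10.54, 8.74 and 8.78 log2 units in WT 4, WT 5 and KO 5. In the low arrays it ran from 6.01 (KO 1) through a median of 6.69 to 8.03 (KO 4). The class means were 9.35 ± 1.03 (SD, n = 3) and 6.87 ± 0.70 (SD, n = 7), a difference of 2.49 log2 units or 5.6-fold, and every high array lay above every low one. The difference was 2.82 within WT and 1.88 within KO, where the high class is 1 array. Its 3 probe sets differed by 2.49, 1.61 and 0.09, the last at the dimmest set (mean 2.80), and with the mean of all 3 the difference was 1.39.

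Zbtb16 (1439163_at), a zinc finger transcription factor induced by glucocorticoids, gave 11.05, 10.25 and 10.32 in WT 4, WT 5 and KO 5. The low arrays ran from 7.71 (KO 1) through a median of 7.95 to 9.13 (KO 4). The classes did not overlap, and their means of 10.54 ± 0.44 (SD, n = 3) and 8.18 ± 0.50 (SD, n = 7) differed by 2.36 log2 units (5.12-fold). For both genes the highest low array was KO 4, which had only 5.45 for Mfsd2a.

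Lep (1422582_at) gave 6.34, 5.75 and 8.01 in WT 4, WT 5 and KO 5. The low arrays ran from 7.92 (WT 3) through a median of 9.83 to 10.23 (KO 4). The mean was lower by 2.73 log2 units in the high arrays (6.66-fold), at 6.70 ± 1.17 (SD, n = 3) against 9.44 ± 0.80 (SD, n = 7), but the classes overlapped because WT 3 lay below KO 5. In bulk tissue, fewer cells of a type and less RNA per cell cannot be told apart. KO 4 thus combined the highest Fkbp5 and Zbtb16 among the low arrays with the highest Lep of all 10 arrays.

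**Figure D1:**
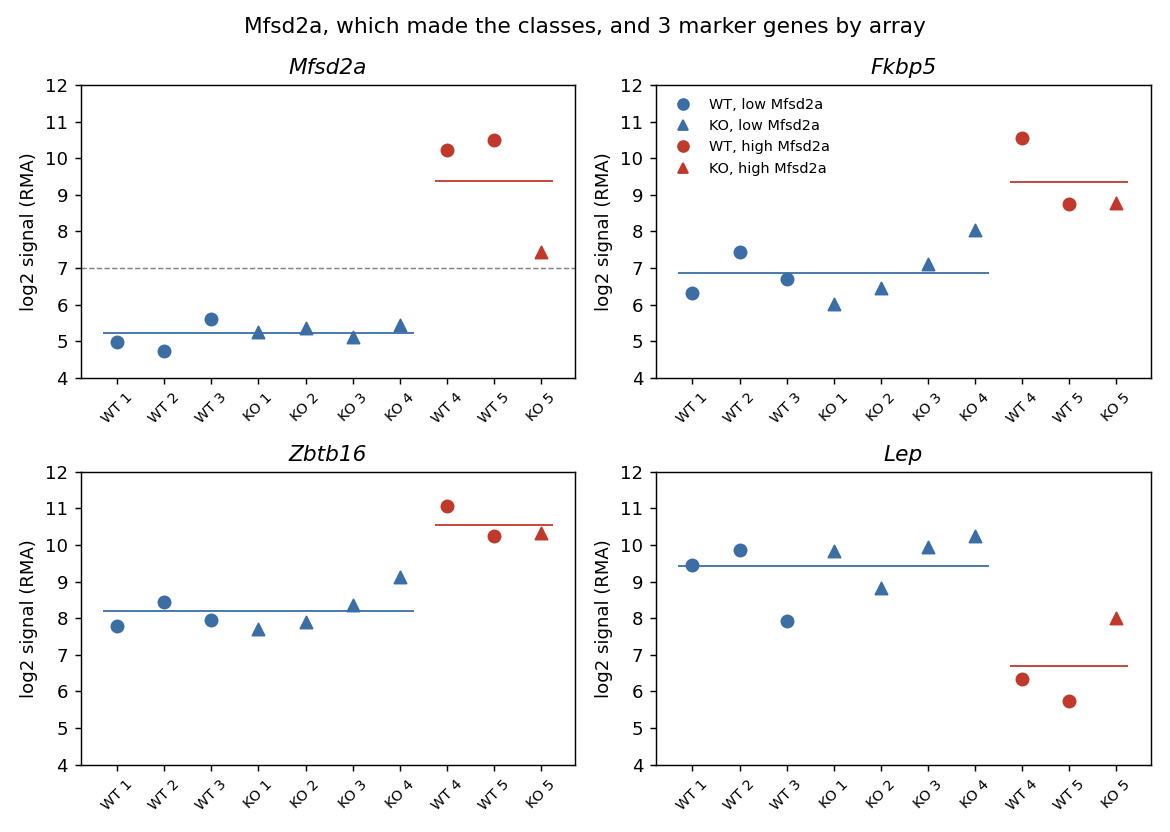
Log2 signal (vertical axis) of Mfsd2a, Fkbp5, Zbtb16 and Lep in each of the 10 arrays, low Mfsd2a arrays to the left in blue and high ones to the right in red, with lines at the class means and a dashed line at the threshold of 7. WT 4, WT 5 and KO 5 lie above all other arrays for Fkbp5 and Zbtb16, while for Lep KO 5 at 8.01 lies just above WT 3 at 7.92.

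Across 18192 genes other than Mfsd2a, 92 were higher in every high array than in every low array with means at least 0.5 log2 units apart (0.506% of genes), and 91 were lower (0.5%), in all 183 genes (1.01%). With each array centred on its median the counts were 111 and 70, so the share of higher genes among them moved from 50.3% to 61.3%. With no minimum difference, 520 genes (2.86%) were higher without overlap and 434 (2.39%) lower, 954 in all (5.24%). At 1 log2 unit or more, 24 were higher (0.132%) and 13 lower (0.0715%). The median difference over all genes was 0.0020. The counts depended on KO 5, since without it there were 207 higher and 317 lower genes, of which 88 and 88 were among the 92 and 91. Without WT 4 there were 119 and 134, and without WT 5 there were 105 and 91. Without WT 3 the lower genes numbered 137. An absence of overlap is easier to meet with fewer arrays. Outside the range of the low arrays by at least 0.5 log2 units lay 134 genes above and 124 below in WT 4, 83 and 122 in WT 5, and 60 and 42 in KO 5.

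The 12 genes with the greatest positive differences, among those without overlap and with a class mean of at least 7, began with Fkbp5 and Zbtb16. Ffar4, a receptor for long-chain fatty acids, gave 9.92, 11.01 and 10.51 in WT 4, WT 5 and KO 5, while the low arrays ran from 7.72 through a median of 8.23 to 9.85. Its mean was 1.96 higher, and the margin between the classes was narrow because WT 3 reached 9.85. Sdc4, a cell-surface heparan sulfate proteoglycan, gave 10.74, 10.26 and 9.93 in the same order against 7.39 to 9.64 in the low arrays, a difference of 1.77. Noct, a rhythmic enzyme of the deadenylase family, gave 11.01, 11.33 and 10.53 against 8.74 to 10.43, a difference of 1.62. KO 4 was again the highest low array for Sdc4 and Noct.

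Next in size came Ddit4, Cdkn1a and Foxo1. Ddit4, an inhibitor of the growth kinase complex mTORC1, gave 9.80, 9.34 and 9.05 in WT 4, WT 5 and KO 5 against 6.57 to 8.26 in the low arrays (difference 1.60). Cdkn1a, the cell-cycle inhibitor p21, gave 10.81, 10.60 and 10.40 against 8.67 to 9.52 (difference 1.5). Foxo1 gave 11.12, 10.62 and 10.21 against 9.10 to 9.57 (difference 1.34), and its low arrays were tightly grouped (9.31 ± 0.15, SD, n = 7). All 3 genes left a gap of over 0.5 log2 units between the lowest high array and the highest low array.

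The last 4 were Acer2, St3gal5, Fam117b and Plod2. Acer2, a ceramidase of the Golgi, gave 10.91, 10.90 and 11.06 in WT 4, WT 5 and KO 5 against 9.21 to 9.83 in the low arrays (difference 1.33), the smallest spread within the high class of these 12 genes (SD 0.09, n = 3). With the mean of both its probe sets the difference was 0.725. St3gal5, which makes the ganglioside GM3, was 1.28 higher, and Fam117b also 1.28. With the mean of its 3 probe sets, the other 2 of which were dim and differed by 0.01 and -0.07, Fam117b was 0.407 higher. Plod2, a lysyl hydroxylase of collagen, was 1.24 higher but uneven, with 6.29 in WT 4, 7.04 in WT 5 and 7.79 in KO 5, and KO 4 was level with WT 4 to 2 decimals. Its class means were 7.04 and 5.80, so it reached the minimum of 7 only through the high class, as did Fkbp5 (9.35 and 6.87). Averaged over the 12 genes, WT 4, WT 5 and KO 5 lay 1.81, 1.60 and 1.54 log2 units above the low class mean. The choice of genes without overlap already set these arrays apart. KO 4 was the next array at 0.361 and WT 1 was lowest at -0.444.

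The 12 genes with the greatest negative differences were led by Nnat, a small membrane protein of the endoplasmic reticulum and an imprinted gene. Nnat gave 7.5, 6.67 and 6.95 in WT 4, WT 5 and KO 5, while the low arrays ran from 8.29 through a median of 8.69 to 9.74, a difference of -1.79. Slc2a5, the fructose transporter, gave 7.94, 8.11 and 8.18 against 8.87 to 10.03 (difference -1.20). Cd274, the immune checkpoint ligand PD-L1, gave 7.56, 7.31 and 7.17 against 7.94 to 8.98 (difference -1.12). None of the 3 overlapped between the classes.

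Irs1, the adaptor through which the insulin receptor signals in fat, gave 8.54, 8.37 and 7.96 in WT 4, WT 5 and KO 5 against 8.95 to 9.95 in the low arrays, a difference of -1.06. Its relative Irs2 went the other way, at 7.56, 7.19 and 7.07 against 6.06 to 7.05 (difference 0.56), with KO 5 only just above KO 1. Mid1ip1, an activator of acetyl-CoA carboxylase, the entry step of fatty acid synthesis, gave 8.74, 8.52 and 8.51 against 9.26 to 9.97 (difference -0.99). The others were Sorcs2 (-1.10), Mtarc1 (-1.01), Arhgap18 (-0.999), Chst12 (-0.96), Map2k6 (-0.95), Rasl12 (-0.93) and Dmrt2 (-0.90), again without overlap. Arhgap18, Map2k6 and Dmrt2 reached the minimum of 7 only through the low class. Averaged over the 12, WT 4, WT 5 and KO 5 lay at -1.02, -1.15 and -1.08 from the low class mean, a separation that the choice of genes required. The low arrays lay between -0.244 and 0.369. Kit, the stem cell factor receptor, was named after its values were seen because its low class mean of 6.90 was just under 7: it was 1.66 log2 units lower, with no overlap, and its other probe set was 0.54 lower.

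**Figure D2:**
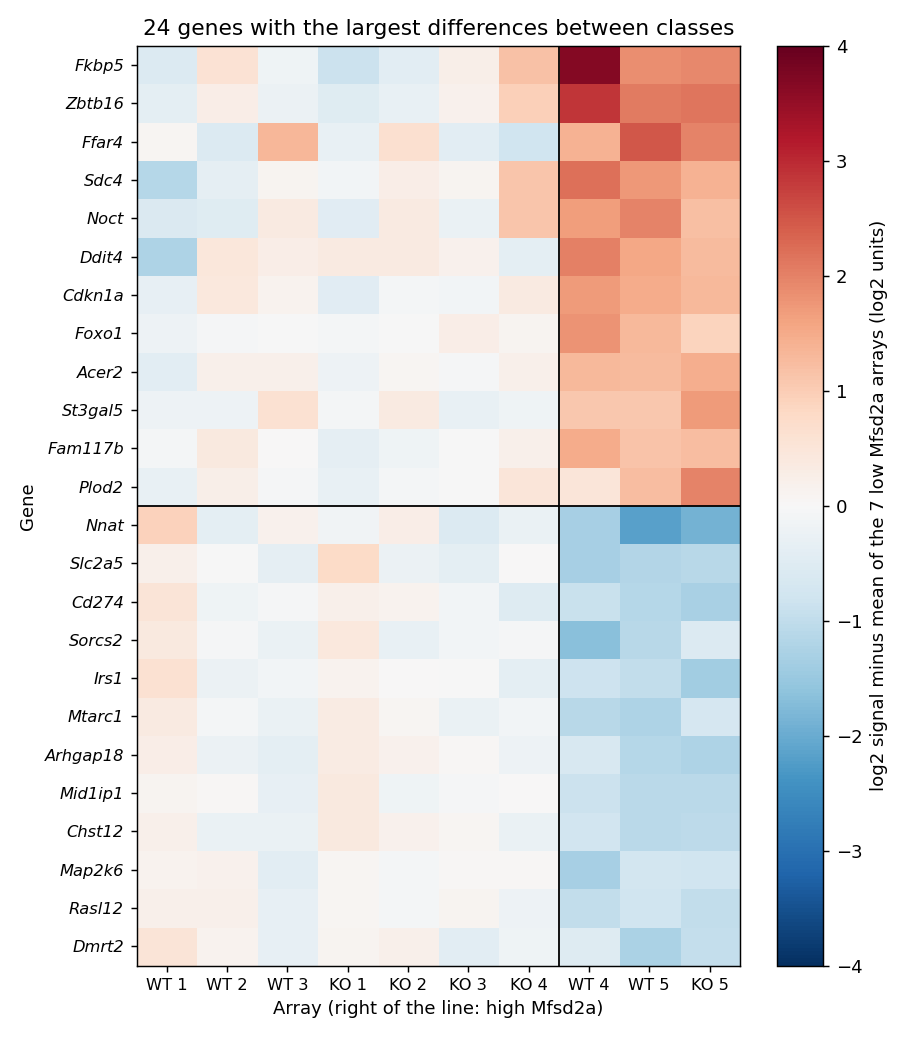
Log2 signal minus the low class mean (colour, -4 to 4 log2 units) of the 12 genes with the greatest positive and the 12 with the greatest negative differences without overlap (rows) in the 10 arrays (columns, high Mfsd2a arrays at the right). The columns of WT 4, WT 5 and KO 5 stand apart from the other 7 because the genes were chosen for not overlapping between the classes. The nearest of the other 7 is KO 4 over the upper 12 genes (0.361) and WT 3 over the lower 12 (-0.244).

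Of 25 genes that glucocorticoids are known to induce, 23 had a higher mean in the high arrays and 2 a lower one, where 50.6% of all genes were higher. Without overlap, 7 were higher and 0 lower, against 2.86% and 2.39% of all genes: Fkbp5, Zbtb16, Ddit4, Cdkn1a, Map3k6, Mt1 and Cebpb. The list median was 0.43 log2 units. The list was drawn up with Fkbp5 and Zbtb16 already known to differ, so its direction is not independent of them. Its mean over genes was 10.28, 9.85 and 9.86 in WT 4, WT 5 and KO 5 and 9.12 to 9.71 in the low arrays, of which KO 4 was the highest. KO 5 and KO 4 thus lay close together, with 9.86 and 9.71.

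Mt1, a metallothionein that binds zinc, gave 13.01, 12.80 and 12.74 in WT 4, WT 5 and KO 5 against 11.87 to 12.60 in the low arrays (difference 0.68, and 0.251 at its other probe set). Map3k6, a stress kinase, gave 8.01, 7.60 and 7.56 against 6.73 to 7.52 (difference 0.70). Cebpb, a transcription factor of early fat differentiation, gave 12.63, 12.65 and 12.12 against 11.74 to 12.02 (difference 0.61). The gap between the classes was narrow in these 3 genes, and KO 5 was the lowest high array in each.

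Other targets differed between the 3 high arrays. Tsc22d3, the leucine zipper protein GILZ, was 11.12 in WT 4 and 10.38 in WT 5 but 9.63 in KO 5, within the low range of 9.05 to 9.80. Its mean was 0.97 higher at this probe set and 0.03 higher at the dimmest of its 4. Klf15, a regulator of amino acid and lipid use, was 10.18 and 9.86 in the WT pair but 8.01 in KO 5 (low arrays 7.60 to 8.63), so that within KO the difference was -0.0842. Per1, a clock gene with a glucocorticoid response, was 8.97 and 8.78 in the WT pair and 8.09 in KO 5, below KO 4 at 8.13. The reverse held for Sgk1, a kinase of sodium transport, which was highest in KO 5 (10.66), then WT 4 (10.13), KO 4 (9.93) and WT 5 (9.87). Mt2 was highest in KO 4 (11.96), followed by KO 5 (11.92) and WT 4 (11.82).

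The rest of the list overlapped between the classes. Klf9 was 0.41 higher, Cebpd 0.43, Errfi1 0.32, Lcn2 0.31, Nfkbia 0.26, Glul 0.15, Bcl6 0.12, Arrdc2 0.09, Sult1a1 0.01 and Hif3a 0.01, all with overlap. The signs of Lcn2, Glul, Bcl6, Arrdc2, Sult1a1 and Hif3a turned under some alternatives. Pdk4, the kinase that shuts pyruvate out of oxidation and responds to both fasting and glucocorticoids, differed by 0.13. Angptl4, a lipoprotein lipase inhibitor induced by both, was lower by 0.66 (by 0.087 within KO), and Dusp1 differed by -0.03. Neither the receptor Nr3c1 (-0.07) nor Hsd11b1 (-0.08), which regenerates active glucocorticoid, separated the classes, and their signs, like those of Pdk4 and Dusp1, turned under some alternatives. Of 10 receptor and chaperone genes measured, 7 were higher and 3 lower (median 0.058). Fkbp5, also on this list, was higher without overlap and Nr3c2, the mineralocorticoid receptor, 0.37 lower, against 2.86% and 2.39% of all genes.

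The glucocorticoid receptor binds a palindrome, here searched as GNACA, any 3 bases and then TGTNC, on both strands in the 250 bases before each gene's start, from RefSeq on build GRCm38.p6. It was found in 3 of the 80 higher genes with a promoter in that set (3.75%), in 0 of 72 lower genes and in 51 of all 14452 genes (0.353%). The 3 promoters are shown because they carry the palindrome upstream of genes higher in all 3 high arrays, with its bases in capitals. They lie at chr8:94178839-94179088 (plus strand, Mt1), chr4:133240568-133240817 (plus strand, Map3k6) and chr14:8309780-8310029 (minus strand, Fam107a, 1 of 3 starts), all printed 5′ to 3′.
Mt1: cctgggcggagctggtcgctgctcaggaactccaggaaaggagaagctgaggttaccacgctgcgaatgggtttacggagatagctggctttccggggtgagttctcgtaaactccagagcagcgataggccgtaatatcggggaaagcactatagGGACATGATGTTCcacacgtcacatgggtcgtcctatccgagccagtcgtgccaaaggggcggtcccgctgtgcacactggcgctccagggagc
Map3k6: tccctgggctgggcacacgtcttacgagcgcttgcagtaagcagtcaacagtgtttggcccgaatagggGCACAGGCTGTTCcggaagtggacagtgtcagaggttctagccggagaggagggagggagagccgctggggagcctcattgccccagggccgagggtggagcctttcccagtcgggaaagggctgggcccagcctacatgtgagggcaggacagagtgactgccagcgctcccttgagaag
Fam107a: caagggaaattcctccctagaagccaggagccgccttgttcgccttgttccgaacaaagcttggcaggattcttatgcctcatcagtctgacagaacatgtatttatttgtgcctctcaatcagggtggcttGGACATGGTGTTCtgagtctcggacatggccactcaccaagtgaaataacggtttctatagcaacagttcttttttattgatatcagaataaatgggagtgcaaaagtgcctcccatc
The match begins 94 bases before the start in Mt1, 181 in Map3k6 and 118 in Fam107a. Fam107a, an actin-associated protein named after its values were seen, gave 8.02, 7.34 and 8.01 in WT 4, WT 5 and KO 5 against 5.71 to 7.31 in the low arrays (difference 1.22, and 0.734 without its _a_at probe set). In the glucocorticoid list, 3 of 22 promoters held the palindrome (13.6%: Map3k6, Mt1 and Sgk1). A match describes these letters only, and its absence elsewhere says only that these letters are not in this window.

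The E-box CACGTG, a palindrome bound by clock and related factors, was found in 13 of 80 higher genes (16.2%), 10 of 72 lower genes (13.9%) and 1262 of all 14452 (8.73%). Ciart and Fkbp5 are shown with the E-boxes in capitals, since Ciart held 3 and Fkbp5 is the leading gene. They lie at chr3:95882229-95882478 and chr17:28486150-28486399 on GRCm38.p6, both on the minus strand.
Ciart: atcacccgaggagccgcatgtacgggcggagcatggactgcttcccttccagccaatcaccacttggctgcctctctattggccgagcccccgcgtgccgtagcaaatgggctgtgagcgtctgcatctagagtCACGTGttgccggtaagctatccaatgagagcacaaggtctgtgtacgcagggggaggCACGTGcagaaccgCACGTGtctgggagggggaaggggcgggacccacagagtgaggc
Fkbp5: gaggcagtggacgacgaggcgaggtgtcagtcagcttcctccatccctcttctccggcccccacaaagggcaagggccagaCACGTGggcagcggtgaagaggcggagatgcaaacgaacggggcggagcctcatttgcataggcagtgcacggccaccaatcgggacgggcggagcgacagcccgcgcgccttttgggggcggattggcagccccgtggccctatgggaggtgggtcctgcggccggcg
Ciart, a repressor of the clock, gave 8.34, 8.38 and 7.48 in WT 4, WT 5 and KO 5 against 6.64 to 7.30 in the low arrays (difference 1.04). Per2, a core clock repressor, gave 7.62, 7.74 and 7.53 against 6.28 to 7.44 (difference 0.52). Of 20 clock genes 10 were higher and 10 lower, these 2 higher without overlap, against 2.86% of all genes. The forkhead motif TGTTTAC was in 0 of 80 higher, 1 of 72 lower and 439 of all promoters (3.04%). The cyclic AMP element TGACGTCA was in 4 (5%), 1 and 361 (2.5%), and the sterol element TCACNCCA in 1, 3 (4.17%) and 586 (4.05%).

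Of 32 measured genes known to rise in fasting, 24 were higher and 8 lower, and the list median was 0.099 log2 units. Without overlap 6 were higher and 1 lower, against 2.86% and 2.39% of all genes. The mean over the list was 10.27, 10.09 and 10.18 in WT 4, WT 5 and KO 5 and 9.89 to 10.05 in the low arrays. Besides Foxo1 and Irs2, the genes higher without overlap were Acot1, Bnip3, Plin5 and Cd36. Members that overlapped included Klf15 (1.27), Ppargc1a (0.49), Pdk4 (0.13), Cpt1a (0.12), Fbxo32 (-0.35) and Angptl4 (-0.66). Klf15, Pdk4 and Angptl4 stand in both the fasting and the glucocorticoid list.

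Acot1, a fatty acyl-CoA thioesterase with near-identical paralogs, gave 6.20, 5.86 and 5.80 in WT 4, WT 5 and KO 5 against 4.43 to 5.49 in the low arrays (difference 1.15), at low signal throughout. Bnip3, a receptor for mitochondrial autophagy, gave 12.57, 12.30 and 12.14 against 11.61 to 12.10 (difference 0.51). Plin5, a lipid droplet coat protein that couples droplets to mitochondria, was 0.35 higher. Cd36, the fatty acid uptake receptor, was without overlap at a difference of only 0.09. Lipe, hormone-sensitive lipase, was 0.22 lower without overlap, with 12.87, 12.77 and 12.97 in the high arrays against 12.97 to 13.22, so the classes met at 2 decimals.

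Of 28 measured genes of fatty acid synthesis and the fed state, 24 were lower and 4 higher, where 49.4% of all genes were lower. Without overlap 4 were lower, against 2.39% of all genes, and 0 higher, and the median was -0.14. The mean over the list was 11.43, 11.43 and 11.54 in WT 4, WT 5 and KO 5 and 11.66 to 11.93 in the low arrays. Lep is a member of this list and was known to differ when the list was drawn up. The list mean separated the classes, with KO 5 nearest to the low arrays.

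Srebf1 gave 10.29, 10.11 and 9.97 in WT 4, WT 5 and KO 5 against 10.46 to 11.20 in the low arrays, a difference of -0.69. Pnpla3, an insulin-responsive lipid droplet protein and SREBP-1c target, gave 11.13, 10.98 and 10.98 against 11.38 to 12.21 (difference -0.87). Slc25a1, which exports citrate from mitochondria, was 0.54 lower, and Acly, which splits that citrate to acetyl-CoA, was 0.39 lower. All 4 were without overlap. Fasn, the fatty acid synthase, differed by -0.11 and Scd1, the main desaturase, by -0.07 (0.0952 within KO), both with overlap, and both lay above 14 log2 units in every array. At the other probe set of Scd1 (mean 13.69) the difference was -0.375.

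Scd2 was lower in the WT pair (9.89 and 9.84) than in any low array (10.85 to 11.97), but KO 5 at 11.27 lay within their range. The same held for Me1, the malic enzyme that supplies NADPH, at 11.71 and 11.84 against 12.46 to 13.21, with KO 5 at 12.75. In the neighbouring cholesterol pathway 13 of 16 genes were lower and 3 higher (median -0.17), where 49.4% of all genes were lower. Dhcr7 (-0.65) and Fdft1 (-0.45) were lower without overlap, against 2.39% of all genes, and the 4 probe sets of Fdft1 ranged from -0.47 to 0.03. Of 21 insulin and IGF signalling genes 12 were higher and 9 lower (median 0.013), with only Irs2 and Irs1 without overlap, in opposite directions. Of all genes, 2.86% were higher and 2.39% lower without overlap.

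**Figure D3:**
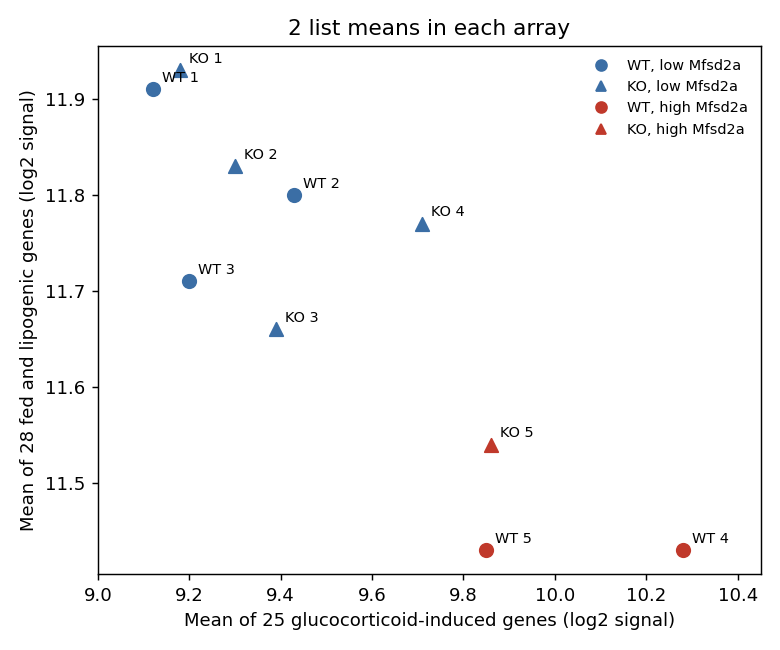
Mean log2 signal over the 28 fed and lipogenic genes (vertical axis) against that over the 25 glucocorticoid-induced genes (horizontal axis), 1 point per array, red for high and blue for low Mfsd2a, circles for WT and triangles for KO. The high arrays lie to the right, at 9.85 to 10.28 against 9.12 to 9.71, and below, at 11.43 to 11.54 against 11.66 to 11.93.

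The glucocorticoid list therefore had the larger median difference (0.43), while the fasting list (0.099) and the fed-state list (-0.14) differed by less, and all 3 list means separated the classes. So did the mean of the receptor and chaperone list (9.041 to 9.214 against 8.724 to 8.905), which holds Fkbp5. The mean of the white adipocyte list, which holds Lep, separated them too (5.989 to 6.357 against 6.37 to 6.664). Lists of different genes have different ranges of signal, and their medians are not a measure of the strength of either exposure. No array was labelled as fasted or as treated with glucocorticoid, and corticosterone, insulin and food intake are not analysed here, so neither exposure was tested. The signs of the 3 medians held in every alternative run, with ranges of 0.34 to 0.61, 0.044 to 0.16 and -0.20 to -0.10. Of all 28 list medians, 15 turned sign under at least 1 alternative.

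Ucp1 was 0.13 higher and Adipoq, encoding adiponectin, 0.10 higher, both with overlap, and Adipoq was at -0.0631 within KO. Of 21 genes of the response to cold and adrenergic signals, 15 were higher and 6 lower (median 0.10). Only Esrrg, an orphan nuclear receptor, was without overlap, against 2.86% of all genes higher in this way, with a difference of 0.36 at its brightest probe set. Its other 2 sets differed by 0.20 and -0.32, and the mean of the 3 by 0.0797. Dio2, the thyroid hormone activating deiodinase, was 11.20 and 11.32 in WT 4 and WT 5 but 9.73 in KO 5, inside the low range of 8.65 to 9.95. Irf4, a factor that fasting and cold induce in fat, showed the same split, at 8.93 and 8.26 against 6.12 in KO 5 and 6.13 to 7.18 in the low arrays. Of 14 brown identity genes 10 were higher and 4 lower (median 0.081). Ebf2, a fate factor of brown fat, was 0.69 lower and alone without overlap, against 2.39% of all genes lower in this way.

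Lipid handling was mixed. Of 29 triglyceride and droplet genes 20 were higher and 9 lower (median 0.065). Without overlap 5 were higher and 2 lower, against 2.86% and 2.39% of all genes. Besides Plin5, Cd36 and Lipe above, Gpam, the first enzyme of glycerolipid synthesis, was 0.44 higher, Pck1, of glyceroneogenesis, 0.31 and Lpl, lipoprotein lipase, 0.26, while Cideb, a droplet protein, was 0.53 lower. The 3 probe sets of Pck1 ranged from -0.15 to 0.37. Of 18 fatty acid oxidation genes 15 were higher and 3 lower, none without overlap, with a median of 0.040. Of 18 autophagy and atrophy genes 7 were higher and 11 lower (median -0.026).

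Among 18 adipokines 11 were higher and 7 lower (median 0.093), and among 15 white adipocyte genes 5 were higher and 10 lower (median -0.067). Retn, resistin, was 9.91 and 9.21 in WT 4 and WT 5 but 7.65 in KO 5, the lowest of all arrays, so that its difference was 1.22 within WT and -0.579 within KO. Nampt, an NAD synthesis enzyme, was 11.00 and 10.83 in the WT pair against 10.27 in KO 5 and 10.08 to 10.40 in the low arrays. Rarres2, chemerin, was 0.53 lower, a sign that turned with another of its probe sets. It was the only adipokine without overlap, against 2.39% of all genes lower in this way. Rab6b, a Golgi transport GTPase, was 4.47 and 4.39 in the WT pair and 8.79 in KO 5, against 7.21 to 8.70 in the low arrays. These values are from the brightest of its 4 probe sets (mean 7.58), where the class difference was -2.42. At the other sets it was -1.55, -0.68 and -0.33, the last at a set nearly as bright (mean 7.48). WT 4 and WT 5 thus shared differences that KO 5 did not show.

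**Figure D4:**
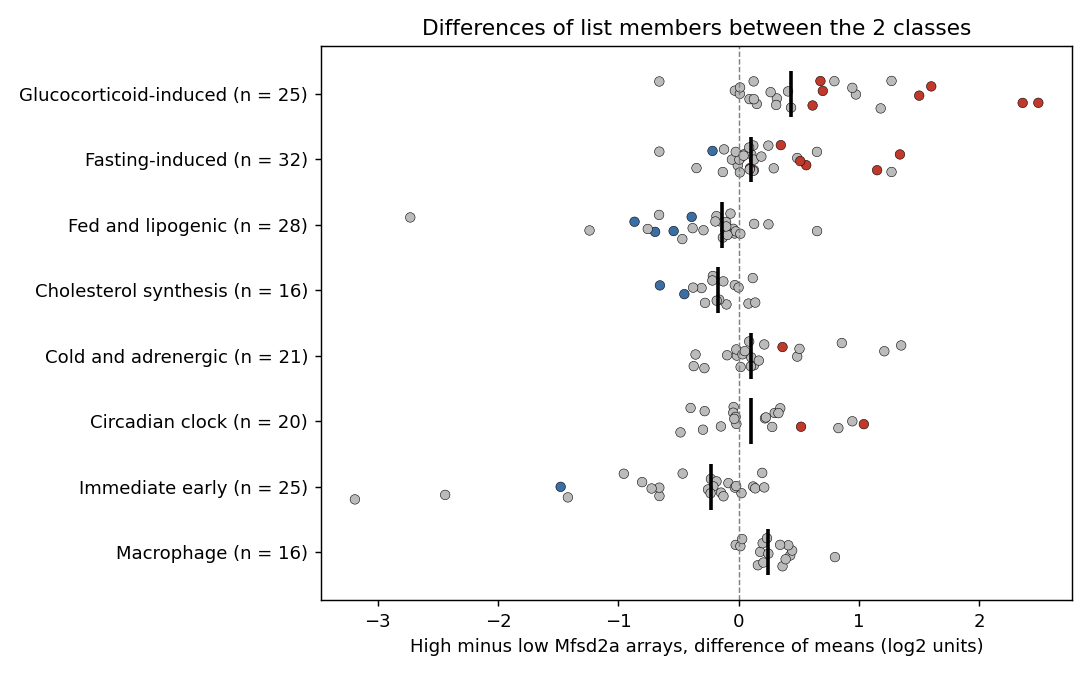
Difference of class means (high minus low Mfsd2a arrays, log2 units, horizontal axis) of each measured member of 8 gene lists, red where all high arrays lie above all low ones, blue where they lie below, grey where the classes overlap, with black bars at the list medians. The glucocorticoid-induced list has a median of 0.43 and 7 red points, the fed and lipogenic list -0.14 and 4 blue points. Of all genes, 2.86% were higher and 2.39% lower without overlap.

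Immediate early genes, which respond within minutes to stimulation, were lower on average: 20 of 25 were lower and 5 higher (median -0.23). By genotype, 23 of these 25 genes were higher and 2 lower in KO (median KO minus WT 0.39), with 0 called. The high class held 2 WT arrays and 1 KO array, and the part of genotype in this class difference was not tested. Fosb was 3.63, 3.97 and 6.25 in WT 4, WT 5 and KO 5 against 5.82 to 9.16 in the low arrays, a mean difference of -3.19 with overlap. Fos differed by -2.45, also with overlap. Egr2 differed by -1.48 and alone was without overlap, against 2.39% of all genes lower in this way. Acute phase and inflammation genes were lower in 14 of 19 (median -0.17), none without overlap. By genotype, 18 of these were higher and 1 lower in KO (median KO minus WT 0.20), with 0 called. Heat shock genes did not move together in the high arrays: the list mean was 9.95 in WT 4, the lowest of the 10 arrays, 11.30 in WT 5 and 11.14 in KO 5, against 10.16 to 11.02 in the low arrays. Of these genes 11 of 14 had a higher class mean, and the median of 0.19 was 0.60 without WT 4 and 0.035 with KO 5 counted as low. Hspa8 (0.49) alone was without overlap, against 2.86% of all genes higher in this way, and its sign turned with another probe set. Unfolded protein and integrated stress genes were higher in 12 of 20 (median 0.028). Herpud1 (0.57) and Dnajb9 (0.42) were higher without overlap, against 2.86% of all genes.

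Markers of other cell types are given as whole lists, and their part in the results was not tested. Skeletal muscle genes were lower in 20 of 22 (median -0.62), but the list mean spanned 7.33 to 9.55 in the high arrays and 5.40 to 11.34 in the low arrays, with both extremes in the low class. The muscle median was -2.7 within WT and 1.7 within KO. Macrophage genes were higher in 15 of 16 (median 0.24), with list means of 7.24 to 7.53 against 6.97 to 7.29. Cd68 (7.64) and Ctss (8.85) were high in KO 5 alone, and Cd163 in WT 4 (7.27) and WT 5 (6.93) alone. Endothelial genes were higher in 5 of 15 (median -0.026), lymphocyte genes in 7 of 14 (0.0033), fibroblast genes in 3 of 11 (-0.11), nerve genes in 4 of 10 (-0.030) and erythroid genes in 3 of 5 (0.065). Cell-cycle genes were higher in 7 of 20 (-0.045), collagen and matrix genes in 13 of 19 (0.037) and sirtuins in 4 of 7 (0.023). The 3′ minus 5′ probe signal, a sign of RNA breakdown, overlapped between the classes for all 5 control transcripts, for example 2.88 to 3.40 against 2.77 to 3.44 for Pcx.

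The genes whose pattern was most like that of Mfsd2a over the 10 arrays, among those with a mean of at least 7, were Atg101, which helps start autophagy (Pearson r = 0.980), Rragc, a GTPase of amino acid sensing by mTORC1 (0.974), Pnp, of purine salvage (0.968), Cebpb (0.968) and Fam126b (0.966). The most opposite were Dcp2, which decaps mRNA (-0.986), Hspa14 (-0.981), Cdpf1 (-0.976), Tshr, the thyrotropin receptor (-0.971), and Snx7 (-0.964). These values rest on WT 4, WT 5 and KO 5 lying apart from 7 arrays, so they describe the order of the classes and carry no p. Tshr was 6.71, 6.81 and 7.37 in WT 4, WT 5 and KO 5 against 7.60 to 7.95 in the low arrays. Pnp was 11.61, 11.54 and 10.98 against 10.15 to 10.76. In both genes KO 5 lay between the WT pair and the low arrays, as for Mfsd2a. Because both were chosen for their correlation with Mfsd2a, this order follows largely from the choice.

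The genotype comparison made no use of the classes, which held 2 high WT arrays and 1 high KO array. Of 18193 genes, limma called 0 (0%) at an adjusted p under 0.05 for KO minus WT, with 851 (4.68%) at an unadjusted p under 0.05 and a smallest adjusted p of 0.914. With the Mfsd2a class as a covariate it called 0, with 839 unadjusted, and without the 3 high arrays 0, with 606. No gene of any list above was called. Fkbp5 gave a KO minus WT difference of -0.67 ± 0.78 (limma adjusted p = 0.938) and Lep 1.5 ± 0.77 (limma adjusted p = 0.914, SE, n = 5 per genotype). Both were within the spread between arrays, and the number of arrays limits their precision.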

How the data were processed

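RNA of brown adipose tissue was measured in 5 WT and 5 Sirt3 KO mice, as labelled, on Affymetrix arrays. The deposited values are log2 signals, made by the authors with RMA per the submitters' processing notes; no label names the software or its settings. RMA gives no detection call, and array medians lay between 5.58 and 5.61.

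Of 45101 probe sets, 64 were controls, 34945 had 1 gene in the platform annotation, 932 several and 9160 none; 34741 matched a RefSeq gene. The probe set with the highest mean was kept per gene, leaving 18193 genes. Arrays were classed by Mfsd2a at 7 log2 units. A gene was counted when the classes did not overlap and their means differed by at least 0.5. Beside means, errors are SD; beside KO minus WT differences, SE of limma 3.58.1 (lmFit and eBayes, R 4.3.3, two-sided, Benjamini-Hochberg over all genes, threshold 0.05).

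Named genes are the markers, the 12 per direction with the largest difference without overlap and a class mean of at least 7, up to 6 members per list, the whole glucocorticoid list, and the 5 most alike and 5 most opposite to Mfsd2a; others, chosen after their values were seen, are Adipoq, Cd36, Fam107a, Fasn, Hsd11b1, Kit, Me1, Nr3c1, Rab6b and Scd1. The members and the 28 gene lists were chosen with earlier results of these data known. The KO minus WT fit was tested on simulated data. Alternatives covered normalization, centring, probe set choice, a filter on dim genes, single arrays, genotype, muscle transcripts and the threshold. Figures used matplotlib 3.10.9.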

Additional observations from a re-analysis of the deposited data

Results flagged for a closer look

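In 58 groups of 5 arrays of 1 genotype checked for a sample far from the others, 3 flags arose, all from KO 5. A chance rate of about 1 flag in 20 groups would hold only for groups chosen without regard to their values. Some of these were chosen by their values, so the count is not compared with that rate. Mfsd2a was 7.43 log2 units in KO 5 and 5.11 to 5.45 in the other KO arrays. Acer2, the Golgi ceramidase, was 11.06 in KO 5 and 9.41 to 9.83 in the others. Map2k6, a kinase of the p38 pathway, was 6.51 in KO 5 and 7.23 to 7.36 in the others. Mfsd2a made the classes, and Acer2 and Map2k6 were named because the high arrays, KO 5 among them, lay outside all low arrays, so the choice of genes already set KO 5 apart and these flags are descriptions.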

How the results depend on the processing

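The count of higher genes without overlap (92) was 248 within WT arrays alone, 208 within KO arrays alone, 160 with KO 5 counted as low (an alternative chosen after the values were seen, equal to a threshold of 7.5), 520 with no minimum difference and 24 at 1 log2 unit or more. Leaving out 1 array gave 86 to 207, the highest without KO 5. The count of lower genes (91) was 554 within WT, 232 within KO, 141 with the muscle list mean as a covariate, 274 after leaving out KO 3, KO 1 and WT 5, where muscle transcripts were lowest, 277 with KO 5 counted as low or a threshold of 7.5, 434 with no minimum and 13 at 1 log2 unit or more. Leaving out 1 array gave 83 to 317, the highest without KO 5, with 137 without WT 3 and 134 without WT 4. Fewer arrays make an absence of overlap easier to meet. With KO 5 counted as low, 53 of the 92 and 50 of the 91 genes were counted again. A threshold of 6.5 made the same classes.

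Of 28 list medians 15, and of 106 named genes 21, turned sign under at least 1 alternative. Within KO arrays alone these included the medians of the muscle (1.7), adipokine (-0.06), clock (-0.022), cell-cycle (0.036) and triglyceride (-0.0014) lists, and Retn (-0.579), Irf4 (-0.326), Rab6b (0.337), Scd1 (0.0952), Klf15 (-0.0842) and Adipoq (-0.0631). Signs also turned with KO 5 counted as low for Cd68 (-0.0994), when probe sets with the suffix _s_at, _x_at or _a_at were dropped for Rarres2 (0.0601), Ighm (0.123) and Hspa8 (-0.034); the cause was not tested. The KO minus WT difference of Mfsd2a was 0.189 without the high arrays, which were removed for their Mfsd2a values, so this value follows from the rule. The KO minus WT fit called 0 genes in every alternative run. With the replicate number as a block it called 0, with 736 at an unadjusted p under 0.05. The numbers do not pair the samples: deviations of arrays with the same number correlated from -0.395 to 0.236, and 0 arrays correlated best with their own number.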

Other observations

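Some genes outside the metabolic lists also separated the classes. Ighm, the heavy chain of immunoglobulin M, gave 6.90, 6.93 and 7.05 log2 units in WT 4, WT 5 and KO 5 against 7.51 to 8.42 in the low arrays. The sign of its difference of -0.82 turned with another of its probe sets. It was the only one of 14 lymphocyte genes without overlap, against 2.39% of all genes lower in this way. Nfil3, a clock output factor, gave 8.49, 8.37 and 8.21 in the high arrays and 8.61 in KO 4, above all of them, while the other low arrays lay at 7.57 or below. KO 4 also had the highest Socs3 of the 10 arrays, a cytokine signalling inhibitor (8.64), and the highest Cxcl1, a neutrophil chemokine (9.38).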
